A study of Mus musculus with 7 samples.

Results

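A set of 10 genes that mark the cells lining blood vessels was followed in soft tissue beside a healing hole in the mouse mandible. They are 10 of the 49164 genes with counts in the deposited table, taken by name, and all 10 passed the filter on low counts that left 15399 genes for testing. Pecam1, Cdh5, Emcn and Vwf encode surface and secreted proteins of endothelial cells, Erg and Sox17 encode transcription factors, and Dll4, Apln, Aplnr and Esm1 belong to the signalling and secretory programme of growing vessels. The tissue was muscle and soft callus, collected on day 5 after a 1.5-mm drill hole was made in the jaw. It came from WT mice (4 libraries) and from Il17af-/- mice, which lack Il17a and Il17f and are called IL17KO (3 libraries), for which the labels name littermates as the controls. The hole was made in both groups, so none of the libraries shows uninjured tissue. Age, sex and substrain are not given in the labels, nor is it stated that libraries came from different animals. All p-values therefore refer to the spread among the 7 libraries.

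Bone repair depends on the growth of new vessels. Endothelial cells hold together through VE-cadherin (Cdh5) and PECAM-1 (Pecam1), and their identity depends on ETS-family factors such as ERG and on the SOXF factors, of which SOX17 is tied to arteries. When a vessel sprouts, a leading tip cell makes DLL4, which signals through Notch to keep its neighbours from leading too. Apelin (Apln) and endocan (Esm1) are secreted by tip cells, and the apelin receptor (Aplnr) is carried by endothelial cells. In long bones of mice, capillaries rich in endomucin (Emcn) and PECAM-1 lie next to bone-forming cells.

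Total counts ran from 18539904 to 26271176 per library, and levels are given as CPM, read counts scaled to a common library size with TMM factors, which take most genes as unchanged. Il17a had 0 counts in all 7 libraries and Il17f at most 1, so the deleted genes cannot check the labels. The summed CPM of 20 skeletal muscle genes ran from 14524 to 51196 in WT and from 30038 to 103090 in IL17KO, lowest in WT replicate 3 and highest in IL17KO replicate 3. The same 2 libraries lay at opposite ends of principal component 1 (47.8% of the variance). The summed CPM of 8 leukocyte genes was 893 to 1406 in WT and 884 to 1126 in IL17KO, and 5 of 10 pericyte and smooth muscle genes had positive fold changes (4 without TMM factors). Of 9 platelet genes, which bear on Pecam1 and Vwf because platelets and megakaryocytes carry both, 3 were tested, and the summed CPM of the list was 103 to 240.4 in WT and 80.1 to 138 in IL17KO, highest in WT replicate 3 and lowest in IL17KO replicate 3. Pf4, a platelet chemokine, made up most of it, at 137 ± 48.0 and 97.7 ± 22.8 CPM. Gp6, a platelet collagen receptor, had at most 3 counts in any library. The part of platelets in the levels of Pecam1 and Vwf was not tested. In bulk tissue, fewer endothelial cells and less RNA per endothelial cell cannot be told apart.

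None of the 10 genes passed the test of a difference between IL17KO and WT. By edgeR's quasi-likelihood test 0 of 10 passed an adjusted p under 0.05 (0 of 10 had an unadjusted p under 0.05), where 0.156% of all tested genes passed and 3.04% had an unadjusted p under 0.05. DESeq2 called 0 of 10 (0.364% of all tested genes) and limma voom with quality weights 0 of 10 (0.422%), both with 0 of 10 at an unadjusted p under 0.05. The ranges of WT and IL17KO overlapped for every one of the 10, while 3.89% of all tested genes had groups without overlap. Fold changes were positive for 5 genes and negative for 5, with a median log2 value of −0.01, against 0.0026 over all tested genes. Without TMM factors 3 were positive and 7 negative, with a median of −0.096, as the median of all tested genes moved to −0.0975. The 95% interval lay within a 2-fold change either way for 9 of the 10 genes, the exception being Esm1, and within 1.5-fold for 7.

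**Figure D1:**
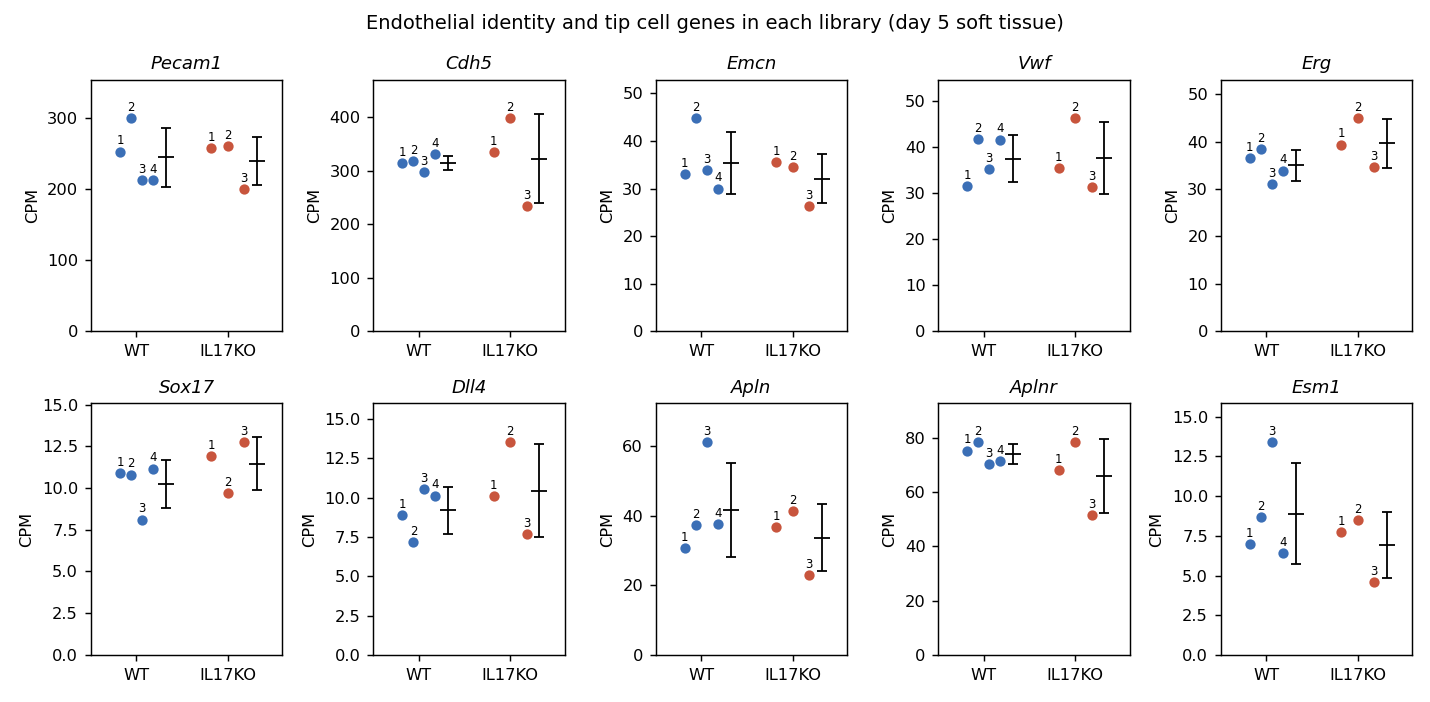
CPM (y axis, from 0) of the 10 genes in each library, with WT in blue and IL17KO in red, replicate numbers above the points, and the mean ± SD in black. The groups overlap in every panel, WT replicate 3 is highest for Apln (61.2 CPM) and Esm1 (13.4 CPM), and IL17KO replicate 3 is lowest for 7 of the 10 genes.

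Cdh5 (ENSMUSG00000031871, chromosome 8), the cadherin of endothelial junctions, was at 314, 318, 298 and 331 CPM in WT replicates 1 to 4 and at 335, 399 and 234 CPM in IL17KO replicates 1 to 3. The WT libraries lay close together, while IL17KO replicate 2 was the highest and IL17KO replicate 3 the lowest of all 7. The group means were 315 ± 13.5 CPM (SD, n = 4) and 323 ± 83.0 CPM (SD, n = 3), with a log2 fold change of 0.03 ± 0.18 (SE, edgeR adjusted p = 0.995) and an interval of 0.770 to 1.36 as a fold.

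Pecam1 (ENSMUSG00000020717, chromosome 11), an adhesion molecule of endothelium that leukocytes and platelets also carry, was at 253, 300.3, 212 and 213 CPM in WT and 258, 260.4 and 200.5 CPM in IL17KO. WT replicate 2 stood highest, and the 3 IL17KO values fell inside the span of WT except for the lowest. The means were 245 ± 41.6 and 239.6 ± 33.9 CPM (log2 fold change −0.03 ± 0.17, edgeR adjusted p = 0.995).

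Emcn (ENSMUSG00000054690, chromosome 3), a sialomucin of capillaries and veins, had 32.98, 44.8, 33.9 and 30.0 CPM in WT and 35.6, 34.5 and 26.2 CPM in IL17KO. It shared with Pecam1 its highest library, WT replicate 2, and its lowest, IL17KO replicate 3. Its log2 fold change was −0.14 ± 0.17 (SE, edgeR adjusted p = 0.987), with an interval of 0.696 to 1.181 as a fold.

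Vwf (ENSMUSG00000001930, chromosome 6), the clotting protein that endothelial cells store for release, had 31.4, 41.6, 35.1 and 41.6 CPM in WT and 35.3, 46.2 and 31.2 CPM in IL17KO. The highest and the lowest value both came from IL17KO libraries. The means were 37.4 ± 5.03 and 37.6 ± 7.76 CPM, and the log2 fold change was 0.0067 ± 0.16 (edgeR adjusted p = 0.999).

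Erg (ENSMUSG00000040732, chromosome 16), an ETS factor that maintains endothelial junctions and that cartilage cells can also express, had 36.5, 38.4, 31.1 and 33.9 CPM in WT and 39.4, 44.9 and 34.7 CPM in IL17KO. IL17KO replicates 1 and 2 lay above every WT library, and IL17KO replicate 3 lay within the WT span. It had the narrowest interval of the 10 genes, 0.930 to 1.38 as a fold, around a log2 fold change of 0.18 ± 0.13 (edgeR adjusted p = 0.987, exact two-sided permutation p = 0.2, where 4 against 3 libraries allow no p below 0.0286). Of 4 tested chondrocyte genes all 4 had negative fold changes. The summed CPM of the 6 listed was 107 to 282 in WT and 85.0 to 131 in IL17KO. Col11a1 made up most of this sum, at 109.6 ± 66.5 CPM in WT and 68.8 ± 19.6 CPM in IL17KO. Col2a1, Col9a1 and Matn1 reached at most 1.19, 0.431 and 0.0479 CPM in any library. The sum was highest in WT replicate 3, the library where Erg was lowest, and 107, 108 and 108 in WT replicates 1, 2 and 4. Without WT replicate 3, 2 of the 4 were positive and 2 negative (median log2 fold change −0.07). All 4 stayed negative when any other single library was left out.

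Sox17 (ENSMUSG00000025902, chromosome 1), a SOXF factor of arterial endothelium, had 10.9, 10.8, 8.10 and 11.2 CPM in WT and 11.9, 9.71 and 12.8 CPM in IL17KO. WT replicate 3 was the lowest library and IL17KO replicate 3 the highest, the reverse of Apln and Esm1. The means were 10.2 ± 1.43 and 11.5 ± 1.58 CPM (log2 fold change 0.16 ± 0.16, edgeR adjusted p = 0.987). An antisense transcript in the GRCm38 annotation, Gm37587, shares 804 exon bases with it and had at most 2 counts in any library.

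Dll4 (ENSMUSG00000027314, chromosome 2), the Notch ligand of tip cells and arteries, had 8.91, 7.18, 10.5 and 10.1 CPM in WT and 10.1, 13.5 and 7.67 CPM in IL17KO. IL17KO replicate 2 lay above all other libraries and WT replicate 2 below them. Its log2 fold change was 0.18 ± 0.21 (SE, edgeR adjusted p = 0.987), with an interval of 0.811 to 1.59 as a fold. An antisense transcript, Gm14207, shares 214 exon bases with it and had 8 to 22 counts. With the muscle level of each library as a covariate the log2 value was 0.33 ± 0.16 (edgeR adjusted p = 1, where 0.221% of all tested genes were called). Leaving out both WT replicate 3 and IL17KO replicate 3 gave 0.43 ± 0.19, the only unadjusted p under 0.05 among the 10 genes in that fit (unadjusted p = 0.0486 by edgeR's quasi-likelihood test, edgeR adjusted p = 1, where 0.193% of all tested genes were called).

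Apln (ENSMUSG00000037010, chromosome X), which encodes the peptide apelin, had 30.7, 37.2, 61.2 and 37.5 CPM in WT and 36.7, 41.3 and 22.9 CPM in IL17KO. WT replicate 3 stood well above the other 6 libraries and IL17KO replicate 3 below them, while the remaining 5 lay between 30.7 and 41.3 CPM. The means were 41.7 ± 13.4 and 33.7 ± 9.57 CPM, with a log2 fold change of −0.31 ± 0.27 (edgeR adjusted p = 0.987). Apln is X-linked, and every library had at least 210 counts of the Y-linked gene Ddx3y and at most 1 count of Xist.

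Aplnr (ENSMUSG00000044338, chromosome 2), the receptor for apelin, had 75.3, 78.3, 70.3 and 71.4 CPM in WT and 68.0, 78.5 and 51.4 CPM in IL17KO. The WT libraries differed little, with an SD of 4.99% of the mean, and IL17KO replicate 3 was the lowest. The log2 fold change was −0.16 ± 0.15 (SE, edgeR adjusted p = 0.987). Aplnr differed 1.53-fold between its highest and lowest library and its ligand Apln 2.67-fold.

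Esm1 (ENSMUSG00000042379, chromosome 13), a secreted proteoglycan of tip cells, had 6.98, 8.69, 13.4 and 6.41 CPM in WT and 7.72, 8.50 and 4.57 CPM in IL17KO. As for Apln, WT replicate 3 was the highest library and IL17KO replicate 3 the lowest. The means were 8.88 ± 3.18 and 6.93 ± 2.08 CPM, with a log2 fold change of −0.35 ± 0.30 (edgeR adjusted p = 0.987) and the widest interval of the 10 genes, 0.487 to 1.26 as a fold. Esm1 rested on 103 to 280 counts per library and Cdh5 on 5283 to 10188. Of all tested genes, whose median ratio of the highest to the lowest library was 1.61, 86.5% had a ratio at or below the 2.94 of Esm1 and 83.7% at or below the 2.67 of Apln.

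The sequence upstream of the tip cell genes is shown because Esm1 and Apln shared a pattern over the libraries that Dll4 followed less closely. RefSeq's GRCm38.p6 promoter table held entries for 5 of the 10 genes (Dll4, Emcn, Esm1, Erg and Apln), and the 250 bases before the start are printed 5′ to 3′ on the gene's strand. Capitals mark AGGAA or its reverse complement TTCCT, a core bound by ETS factors such as ERG, searched on both strands. The windows are chr13:113209409-113209658 (plus strand) for Esm1, chrX:48034854-48035103 (minus strand) for Apln and chr2:119325534-119325783 (plus strand) for Dll4.
Esm1: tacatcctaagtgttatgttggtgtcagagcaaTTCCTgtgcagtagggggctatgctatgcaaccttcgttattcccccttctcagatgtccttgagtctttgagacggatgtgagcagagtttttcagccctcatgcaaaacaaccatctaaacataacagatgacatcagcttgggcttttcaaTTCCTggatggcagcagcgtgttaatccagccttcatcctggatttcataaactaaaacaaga
Apln: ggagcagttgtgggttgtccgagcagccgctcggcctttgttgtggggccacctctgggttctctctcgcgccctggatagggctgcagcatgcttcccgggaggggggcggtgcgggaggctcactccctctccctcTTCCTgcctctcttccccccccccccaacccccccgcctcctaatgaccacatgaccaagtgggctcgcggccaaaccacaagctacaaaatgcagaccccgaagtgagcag
Dll4: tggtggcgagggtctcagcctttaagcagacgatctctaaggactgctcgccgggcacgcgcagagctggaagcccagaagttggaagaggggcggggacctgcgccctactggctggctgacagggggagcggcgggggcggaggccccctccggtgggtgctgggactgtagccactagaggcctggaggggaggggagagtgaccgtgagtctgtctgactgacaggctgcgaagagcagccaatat
Esm1 held 2 matches, Apln 1 and Dll4 0, where 60.3% of 32851 promoter windows of this length held at least 1. Of the windows not printed, that of Emcn held 4 and the 3 of Erg held 1, 1 and 0. Whether these matches bear on the pattern shared by Esm1 and Apln was not tested. ACAAT, a SOX core, was in none of the 3 printed windows and in 27.7% of all. TGGGAA, the RBPJ core of Notch signalling, was in none of the 3 and in 21.6% of all. ACGTG, the core of hypoxia-response elements, was in none of the 3 and in 16.6% of all, each counted on both strands. The Emcn window held 1 ACAAT, and 1 Erg window held 1 ACAAT and 1 TGGGAA. No match says only that these letters are not in this window.

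**Figure D2:**
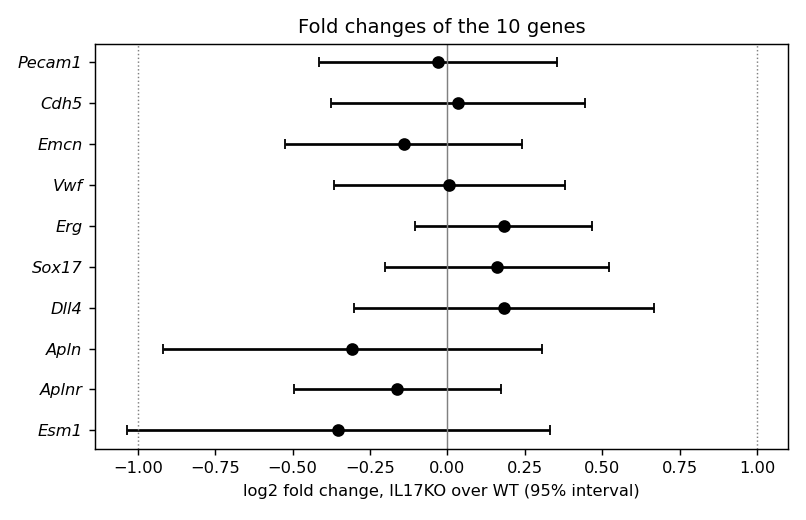
Log2 fold change of IL17KO over WT (x axis) for each of the 10 genes by edgeR, with bars for the 95% interval and dotted lines at a 2-fold change. Every interval includes 0, and Esm1 alone reaches past the dotted line, at −1.04.

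Per kilobase of annotated exon, the 10 genes spanned a wide range of levels. Cdh5 was highest, at 75.0 ± 3.22 CPM per kb in WT and 76.8 ± 19.8 in IL17KO, followed by Pecam1 at 39.3 ± 6.68 and 38.5 ± 5.44 CPM per kb. Aplnr came next, at 20.0 ± 0.997 and 17.8 ± 3.70 CPM per kb. Cdh5, Pecam1 and Aplnr kept this order in all 7 libraries with no overlap of their ranges. Apln and Erg, at 13.2 ± 4.26 and 10.1 ± 0.926 CPM per kb in WT, overlapped, with Apln the higher in 5 of 7 libraries. Emcn was at 6.55 ± 1.20 CPM per kb in WT and lay below Erg in every library. The lowest levels were those of Esm1 (4.23 ± 1.52), Dll4 (2.39 ± 0.391), Vwf (2.33 ± 0.313) and Sox17 (2.14 ± 0.300 CPM per kb in WT). Vwf exceeded Sox17 in 4 of 7 libraries only, so these neighbours did not differ beyond their spread. The length counts every annotated exon of a gene, 16064 bases for Vwf and 4772 for Sox17, whichever isoforms the tissue made. The order of the genes, and the low place of Vwf, depend on this measure of length.

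Levels were also set against Cdh5 of the same library. The CPM of Esm1 was 2.22, 2.74, 4.50 and 1.94% of that of Cdh5 in WT and 2.30, 2.13 and 1.95% in IL17KO. That of Apln was 9.77, 11.7, 20.5 and 11.3% in WT and 10.9, 10.4 and 9.79% in IL17KO. For both, the IL17KO libraries agree within a narrow span and WT replicate 3 lies far above the rest. Dll4 stayed between 2.26 and 3.54% of Cdh5 over all 7 libraries, also highest in WT replicate 3. Sox17 ran the other way, at 3.46, 3.40, 2.72 and 3.37% in WT and 3.55, 2.43 and 5.45% in IL17KO, with IL17KO replicate 3 highest. Aplnr was the steadiest of the 9, at 21.6 to 24.7% in WT and 19.7 to 21.9% in IL17KO. These ratios describe the libraries and were not tested.

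**Figure D3:**
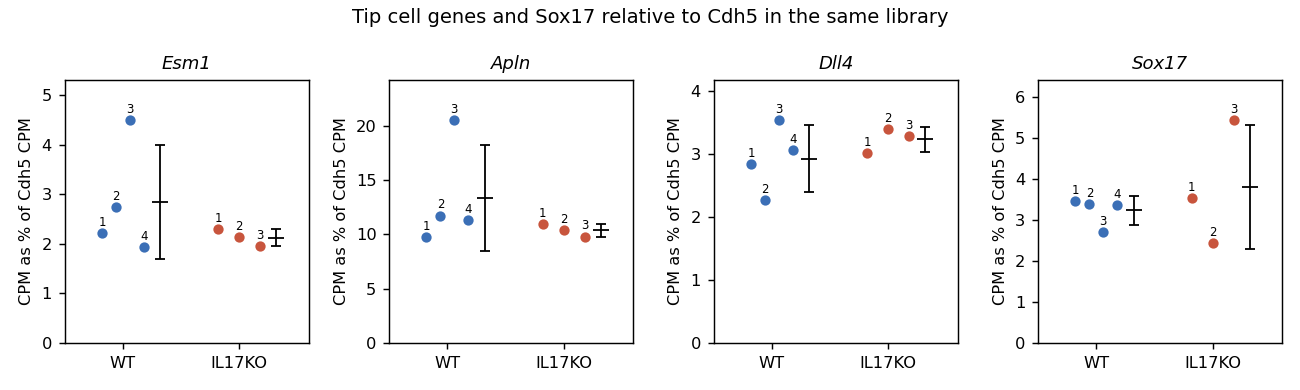
CPM of Esm1, Apln, Dll4 and Sox17 as a percentage of the CPM of Cdh5 in the same library (y axes from 0), WT in blue, IL17KO in red, replicate numbers above the points, mean ± SD in black. WT replicate 3 stands at 4.50% for Esm1 and 20.5% for Apln, and IL17KO replicate 3 at 5.45% for Sox17.

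IL17KO replicate 3 was the lowest library for 7 of the 10 genes and the highest for Sox17, and IL17KO replicate 2 was the highest for 5 (Cdh5, Vwf, Erg, Dll4 and Aplnr). Among the 45 pairs of genes the Pearson r of log2 CPM over the 7 libraries had a median of 0.42 and ran from −0.91 (Sox17 with Esm1) to 0.95 (Apln with Esm1). These values are descriptions, since all genes share the same 7 libraries and their scaling.

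The muscle level of a library, the mean log2 CPM of 20 muscle genes, was related to 2 of the 10 genes by Pearson's r after adjustment, Sox17 and Esm1, and to none by Spearman's rho. Esm1 was lower where it was higher (Pearson r = −0.946, exact permutation p = 0.00913, adjusted over 10 relations 0.0456, Spearman rho = −0.821, exact permutation p = 0.0341, adjusted 0.171). Without the 2 libraries farthest from the median muscle level, WT replicate 3 and IL17KO replicate 3, r was −0.475 (n = 5), so the relation rests on them. Apln had r = −0.929 (exact permutation p = 0.0151, adjusted 0.0503) and rho = −0.679 (exact permutation p = 0.11, adjusted 0.365), and r was −0.251 without the same libraries. Sox17 was higher where the muscle level was higher, with r = 0.974 (exact permutation p = 0.000794, adjusted 0.00794) and rho = 0.929 (exact permutation p = 0.00675, adjusted 0.0675), and r was 0.909 without those libraries. Of all tested genes 2.19% had an r at or below that of Esm1, and 98.2% one at or below that of Sox17. For the other 7 genes r ran from −0.604 (Aplnr, exact permutation p = 0.194) to 0.132 (Erg, exact permutation p = 0.792). No r is given within the groups, which hold 4 and 3 libraries.

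**Figure D4:**
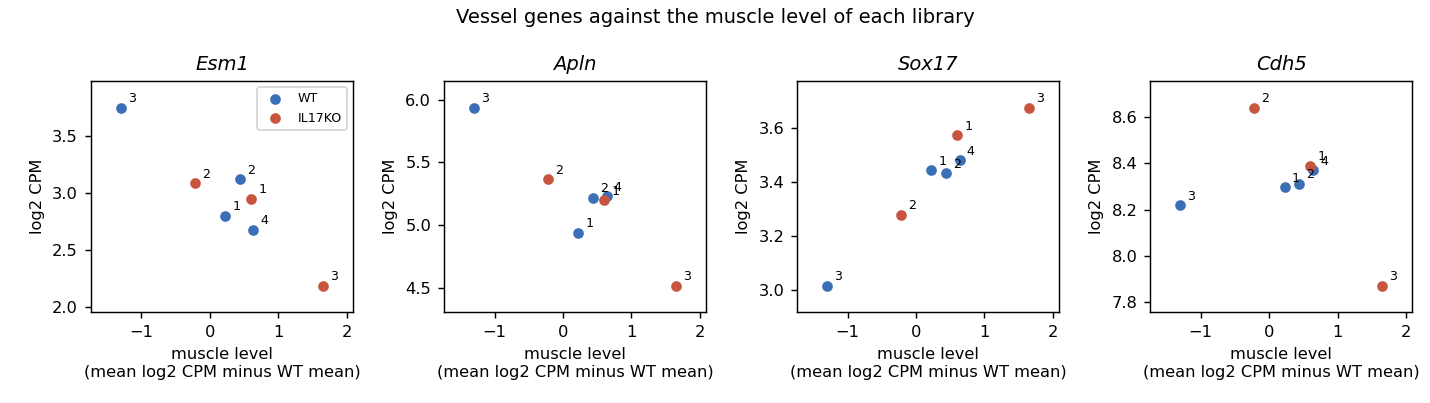
Log2 CPM of Esm1, Apln, Sox17 and Cdh5 (y axes) against the muscle level (x axis, mean log2 CPM of 20 muscle genes minus the WT mean), 1 point per library, WT in blue and IL17KO in red with replicate numbers. WT replicate 3 at −1.30 and IL17KO replicate 3 at 1.65 are the ends of the x axis. Esm1 and Apln are highest at the left end, and Sox17 is highest at the right end.

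With the muscle level as a covariate, the log2 fold change of Esm1 moved from −0.35 to −0.01 ± 0.16, that of Apln from −0.31 to −0.01 ± 0.13 and that of Sox17 from 0.16 to 0.01 ± 0.12 (edgeR adjusted p = 1 for each). When both of those end libraries were dropped, Esm1 was at 0.14 ± 0.19 and Apln at 0.15 ± 0.14 on the log2 scale, with the sign turned (edgeR adjusted p = 1 for each). Limma voom, which gave both libraries low weights (0.386 and 0.487), put Esm1 at −0.03 ± 0.19 and Apln at −0.04 ± 0.17 (adjusted p = 0.972 and 0.962). In that fit IL17KO replicate 1 had a weight of 5.31 and IL17KO replicate 2 one of 0.624. The IL17KO side of the voom values therefore rests mostly on IL17KO replicate 1. The part of the muscle content in the fold changes of these fits was not tested further.

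By a fixed rule, the genes whose pattern over the 7 libraries was most like that of Cdh5 among 12961 ranked genes were Arhgef26 (r = 0.955), Mmrn2 (0.954), Tspyl3 (0.953), Mocs1 (0.952) and Rhbdd1 (0.95). Mmrn2 encodes an endothelial matrix protein. The closest of the 10 genes to Cdh5 was Aplnr, at rank 124 (r = 0.846). The genes most like Esm1 were Ehd1 (r = 0.993), Pygl (0.991), Tram1 (0.991), Lsm2 (0.99) and Colec12 (0.989). Apln stood at rank 170 (r = 0.95) and Sox17 near the other end, at rank 12100. These values are descriptions over the same 7 libraries.

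Without TMM factors the balance of signs in most endothelial lists shifted toward negative values along with the median of all genes, and that split is given beside each count where it moved. Of 30 further endothelial genes 30 were tested and 0 passed, with 15 positive, 15 negative and a median log2 fold change of −0.0067 (6 positive and 24 negative without TMM factors), and 1 had an unadjusted p under 0.05. That was Gpihbp1, which carries lipoprotein lipase across capillaries, at 21.3 ± 2.17 CPM in WT and 26.9 ± 3.103 CPM in IL17KO (log2 0.33 ± 0.13, edgeR adjusted p = 0.987). Ptprb, the VE-PTP phosphatase that acts on VE-cadherin and Tie2, was at 74.3 ± 12.3 and 92.2 ± 1.20 CPM without overlap of the groups (log2 0.31 ± 0.14, edgeR adjusted p = 0.987). Aqp1, a water channel of capillaries, was at 81.1 ± 30.0 and 118 ± 45.3 CPM, and its log2 value of 0.54 turned to −0.02 with WT replicate 3 and IL17KO replicate 3 left out.

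Of 15 endothelial transcription factors 7 were positive and 8 negative (3 and 12 without TMM factors), with 0 called and 1 at an unadjusted p under 0.05. Hhex, a homeobox factor of early endothelium, was at 15.5 ± 1.06 CPM in WT and 12.6 ± 1.30 CPM in IL17KO without overlap (log2 −0.30 ± 0.12, edgeR adjusted p = 0.987). Foxc2, of lymphatic valves, had a log2 value of −0.71 ± 0.37 and Foxo1 0.14 ± 0.11. Among genes named for their role, outside the rule and with their values known, Fli1, the closest relative of Erg, was at 74.2 ± 6.12 and 69.9 ± 7.65 CPM. Sox7 and Sox18, the other SOXF factors, were at 14.6 ± 1.50 and 14.6 ± 1.55 CPM and at 29.7 ± 4.38 and 31.6 ± 4.46 CPM. Sox18 was highest in WT replicate 3, the library where Sox17 was lowest.

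Of 21 tip cell and sprouting genes 20 were tested, 3 positive and 17 negative (1 and 19 without TMM factors), with a median log2 fold change of −0.12 and 0 called (0 at an unadjusted p under 0.05). Piezo2, a mechanosensitive ion channel, had a log2 value of −0.43 ± 0.23, Kdr, the main VEGF receptor, −0.25 ± 0.17, and Adm, adrenomedullin, 0.38 ± 0.21 (edgeR adjusted p = 0.987 for each). The median became 0.03 with the muscle level as a covariate (13 positive) and 0.12 with WT replicate 3 and IL17KO replicate 3 left out (15 positive), so the direction of this list turned with these 2 settings. Its summed CPM was 2786 to 3333 in WT and 2001 to 3302 in IL17KO.

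Of 18 Notch and arterial genes 7 were positive and 11 negative (4 and 14 without TMM factors), with a median of −0.03 and 0 called (0 at an unadjusted p under 0.05). Notch1 and Notch4, receptors for DLL4 named here for their role, were at 50.2 ± 7.57 and 51.9 ± 9.77 CPM and at 33.5 ± 5.65 and 35.6 ± 7.58 CPM in WT and IL17KO. Sema3g and Gja5, both arterial, had log2 values of 0.29 ± 0.16 and 0.28 ± 0.17, and Hes1, a Notch target, −0.15 ± 0.10. Hes1 did not overlap between the groups, at 19.0 ± 0.936 and 17.1 ± 0.724 CPM, but did not pass the test (edgeR adjusted p = 0.987). Of 8 venous and capillary genes 3 were positive (2 without TMM factors) and 0 were called (0 at an unadjusted p under 0.05), with log2 values of −0.24 ± 0.18 for Lrg1, −0.19 ± 0.16 for Cd36 and 0.33 ± 0.30 for Car4.

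**Figure D5:**
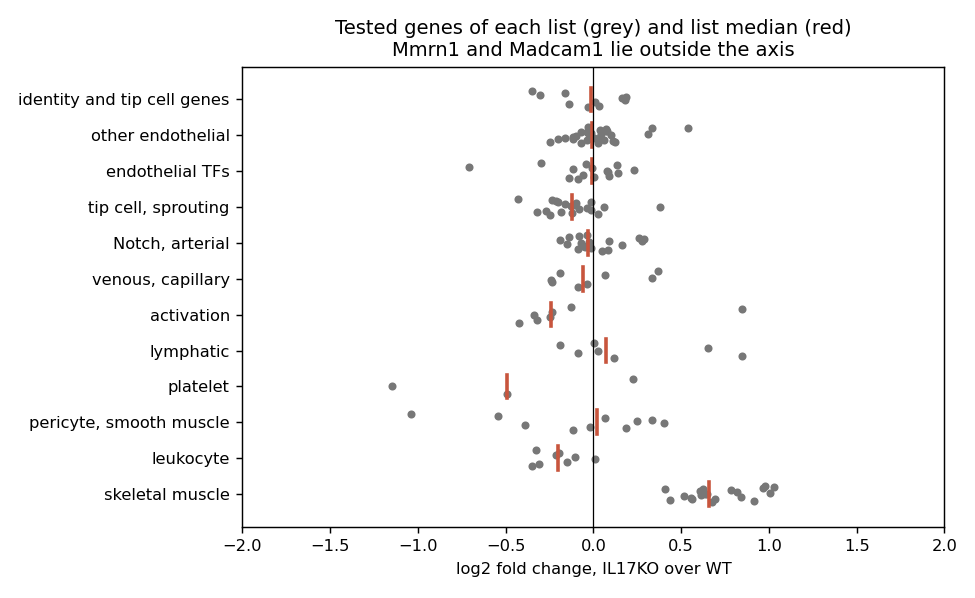
Log2 fold change of IL17KO over WT (x axis) for the tested genes of each list (grey points) with the list median (red bar). The medians of the endothelial lists lie between −0.24 (activation) and 0.07 (lymphatic), and that of the 20 muscle genes at 0.66. Mmrn1 and Madcam1 are beyond the axis.

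Endothelial genes past the threshold were found only among the activation and lymphatic lists, with 1 call in each. Of 8 activation genes 6 had negative fold changes (median −0.24), and Madcam1, an addressin of mucosal and inflamed vessels, rose. It had 2, 0, 2 and 3 counts in WT and 22, 40 and 19 counts in IL17KO, so the groups did not overlap and every WT library was at or below a floor of 3 counts. The ratio of its rates was 14.1 (95% exact interval 6.52 to 36.1, counting error only), with an edgeR adjusted p of 0.0375. The call ended when any 1 of the 7 libraries was left out (edgeR adjusted p = 0.0791 to 0.189), with the replicate number as a block (adjusted p = 0.999) and without TMM factors (adjusted p = 0.0604), and the gene was not tested under a filter of 1 CPM in 3 libraries.

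Of 8 lymphatic endothelial genes 6 had positive fold changes, with a median of 0.07 (4 of 8 and −0.02 without TMM factors). Mmrn1, which encodes multimerin 1 and is made by platelets and lymphatic endothelium, had 0 counts in all 4 WT libraries and 83, 75 and 94 counts in IL17KO, or 3.50 ± 0.622 CPM (SD, n = 3). That is at least 103-fold higher than the limit set by 3 counts in the WT libraries together (edgeR adjusted p = 0.0068). The call ended without IL17KO replicate 1 (edgeR adjusted p = 0.0554) and with the replicate number as a block (adjusted p = 0.461). Prox1, the defining factor of lymphatic identity, had 15.02 ± 2.54 CPM in the WT group against 16.3 ± 1.31 CPM in IL17KO and did not pass the test (edgeR adjusted p = 0.987), and Lyve1, which macrophages also express, was at 6.53 ± 1.17 and 11.7 ± 3.56 CPM (log2 0.85 ± 0.23, edgeR adjusted p = 0.933). The 2 genes are named here outside the rule. In the platelet list Ppbp, Pf4 and Itga2b had log2 values of −1.15 ± 0.56, −0.49 ± 0.27 and 0.23 ± 0.21 (edgeR adjusted p = 0.987 for each).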

How the data were processed

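Per the file headers, the authors deposited 2 sets of values for each of 7 libraries, raw read counts and a DESeq2-normalized signal. TopHat, HTSeq, DESeq2, cutadapt, FastQC and bcl2fastq and the build GRCm39 are named in the submitters' processing notes, without versions or the strand setting of the counting. The kit was stranded, per the labels' protocols. Columns were matched to samples by the library names in the labels. Of 55414 gene rows 6250 were blank. The test was that of edgeR 4.0.16 (R 4.3.3, quasi-likelihood, two-sided, TMM, filterByExpr, robust) over 15399 genes, with Benjamini-Hochberg adjustment and a threshold of 0.05. Standard errors are the log2 fold change over the square root of F, with 95% intervals from the fit. CPM uses all counts and the TMM factors, and 3 counts are 0.111 to 0.162 CPM. Logs for correlations use a pseudocount of 0.5. Exon lengths and overlaps come from GENCODE's GRCm38 annotation, an older build, so no coordinates of the counts are given. No other gene transcript matched any of the 10 at 95% identity over 80% of its length.

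The members and lists were chosen with earlier results of these data known. Genes named from an endothelial, lymphatic or platelet list are those past the threshold, or else the 3 with the smallest p, and other marker lists are given by counts and summed levels. Alternatives were DESeq2 1.42.0, limma 3.58.1 voom with quality weights, RLE or no normalization factors, other filters, a covariate for muscle level, a replicate block, a looser threshold of 0.10, and libraries left out. The deposited normalized values support no result here, since a scale factor per library cancels in the ratios to Cdh5. Pairs within a group had chi-square values of 21.2 to 218 per gene, so none was a repeat deposit. In a simulation of IL17KO against WT with 15399 genes, 55 of 100 changes of 2-fold and 94 of 100 of 4-fold were recovered, and 10 of 159 calls were unchanged genes.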

Additional observations from a re-analysis of the deposited data

Results flagged for a closer look

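Sox17 in WT replicate 3, at 8.10 CPM, was far from the other WT libraries at 10.8 to 11.2 CPM, and so was its level relative to Cdh5, at 2.72% against 3.37 to 3.46%. The gap to the nearest library was 0.883 and 0.877 of the whole range of the group. Both are above Dixon's critical value at a confidence level of 95% for 4 samples, which chance passes in about 5% of groups. The check was made at both ends of the WT group for each of the 10 genes and for their ratios to Cdh5. With so many looks a pass can arise by chance. Both passes use the same Sox17 counts of WT replicate 3, so the second adds no separate evidence. The same library had the lowest muscle level of all 7, and the part of the muscle content in the Sox17 value was not tested.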

How the results depend on the processing

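None of the 10 genes was called under any alternative run, with a lowest adjusted p of 0.571 (Aplnr), and Emcn, Aplnr and Erg kept their sign throughout. Over all genes 24 were called, against 65 by limma voom, 56 by DESeq2, 42 with no filter, 2 with the replicate block and 8 to 21 with 1 library left out, the count falling by over 1.5 times for each library except WT replicate 3. The replicate numbers are those of the sample titles, which differ from some of the library names. Same-numbered libraries deviated from their group means with r = 0.12, −0.29 and −0.54. These 3 values cannot show whether samples were handled in pairs, so the block is only an alternative run. It called 0 of the 10 genes. Signs turned, always without a call, as follows on the log2 scale. Limma voom gave Pecam1 0.0166 and Vwf −0.0594. Without TMM factors Cdh5 was at −0.0439, Vwf −0.0774, Notch1 −0.0438, Notch4 −0.0059, Sox7 −0.089 and Sox18 −0.0094, and the block gave Sox7 −0.0314. Without WT replicate 3 and IL17KO replicate 3 Pecam1 was at 0.0181, Sox17 −0.0227, Apln 0.148, Esm1 0.142, Aqp1 −0.0204 and Car4 −0.106. With 1 library left out Pecam1 ran from −0.103 to 0.0769, Cdh5 from −0.147 to 0.2098, Vwf from −0.17 to 0.114, Dll4 from −0.0508 to 0.352, Car4 from −0.0305 to 0.571, Notch1 from −0.0776 to 0.181, Notch4 from −0.044 to 0.238, Sox7 from −0.0535 to 0.0786 and Sox18 from −0.0193 to 0.184. Leaving out 1 library gave 0 calls in the activation list each time and 0 to 1 in the lymphatic list. The cause was not tested. Counts were lowest for Dll4, Esm1 and Sox17, at 103 to 346 per library.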

Other observations

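Ddx3y had 210 counts in WT replicate 2 and 1344 to 2222 in the other 6 libraries, while Xist had at most 1 count in each.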
